A study of Canis lupus familiaris with 6 samples.

Results

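The proteasome is the barrel-shaped protease that degrades ubiquitin-tagged proteins in every cell. Its 20S core is built from rings of α subunits, which gate the entrance, and rings of β subunits, among which PSMB5, PSMB6 and PSMB7 carry the active sites. The 19S cap recognises tagged proteins and uses a ring of ATPases (the PSMC subunits) to unfold and feed them into the core, while the PSME proteins are alternative caps that open the core without ubiquitin. Under interferon, cells make the exchange subunits PSMB8, PSMB9 and PSMB10, which replace PSMB5, PSMB6 and PSMB7 in newly built cores to form the immunoproteasome. The genes described here are those of the constitutive proteasome. They were picked out by name from the array design, as symbols of the PSMA, PSMB, PSMC, PSMD, PSME, PSMF and PSMG series without the 3 exchange subunits. The set itself was chosen with earlier results of these data known.

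The rule found 40 genes with 62 probes, of 12470 named genes and 43603 probes on the array, and the brightest probe stood for each gene. These were 14 genes of the 20S core, 16 of the 19S cap (5 ATPases and 11 other subunits), 4 PSME activators and 6 assembly chaperones, which help to build the particle and leave it. All 40 symbols matched a gene of the dog RefSeq table. PSMA1, PSMA4, PSMC6, PSMG1 and the proteasome regulator PSMF1 carried no such symbol in the design and were read, apart from the members, through probes whose description named them. The probe described as PSMA1 was described as similar to that gene only.

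RNA came from Madin-Darby canine kidney (MDCK) cells, a dog kidney epithelial line, that expressed mCherry-β-catenin Δ131, a stabilised β-catenin without its N-terminus (β-cat ΔN) driven by an EF1 promoter, and tetracycline-inducible GFP-RasV12, an active Ras oncoprotein. These β-cat ΔN/RasV12 cells grew either by themselves (single culture, 3 arrays) or among MDCK mCherry-β-catenin Δ131 cells at 10 surrounding cells for each RasV12 cell (mix culture, 3 arrays). Both cultures stood on collagen-coated dishes and received tetracycline for 24 h, so RasV12 was induced in both, and both β-catenin lines were kept in one medium. GFP-positive cells were then sorted, and total RNA was labelled with Cy3 for single-colour Agilent arrays. The comparison asks how the RasV12 cells change when they are surrounded by cells without RasV12. The surrounding cells came from the same parent line and lacked GFP-RasV12, the tag used for the sort, so cell type markers do not separate them from the sorted cells. The sources do not say that the arrays of a group came from separate cultures, so p-values measure the spread between these arrays.

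Between 61.11% and 65.66% of the spots of an array were well above background and none was saturated. Of 7 kidney epithelial markers on the array 7 were well above background on all 6 arrays, while the leukocyte markers PTPRC and LYZ were above it on none and CD3E and CD79A on all. Among endothelial and fibroblast markers, PECAM1, KDR, COL1A2 and PDGFRB were above background on all 6 arrays, COL1A1 on 4 and CDH5 on 1. Some of these probes were dim, with intensities of 7.5 to 14.8 for CD3E and 8.9 to 21.3 for CD79A. KDR read 8.3 to 13.0 and PDGFRB 9.1 to 22.8. The lowest signals marked well above background were 4.19 to 4.48 on these arrays. None of the markers was called between cultures without a block, and with the slide as a block CDH1, the epithelial cadherin, was called (change -0.47, adjusted p = 0.0444). The HRAS probe read 5.97, 6.82 and 6.45 in single culture and 5.50, 5.68 and 6.20 in mix culture, a change of -0.62 (limma adjusted p = 0.608). With the slide as a block in limma its adjusted p was 0.0650. The change was -0.47 within slide 1 and -0.70 within slide 2. Whether this probe reads the RasV12 transgene was not tested. Replicate 1 of each culture lay on one slide (slide 1) and replicates 2 and 3 on another (slide 2).

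All signals below are normalised log2 signals, the log2 of the background-subtracted intensity relative to the 75th percentile of the same array, listed in the order of replicates 1, 2 and 3. A change is the mean of mix culture minus the mean of single culture on that scale. It was fitted by limma over all 26621 probes tested and called at a Benjamini-Hochberg adjusted p under 0.05. A difference in level between genes is not read from these values, since each probe has its own brightness.

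In the fit without a block, no gene of the constitutive proteasome passed the test between cultures. Of 38 member genes tested, 0 were called in limma's adjusted test, against 0.883% of all probes (0.969% of named genes). At an unadjusted p under 0.05, 0 of 38 passed, against 8.71% of all probes. The smallest adjusted p was 0.575, for PSME1. The methods' test, unpaired and two-tailed, called 0 members after adjustment, but only 8 of all 26621 probes. With the slide as a block in limma, 1 of 38 was called, PSME2 (adjusted p = 0.0314), against 7.20% of all probes. In that fit PSME1 had an adjusted p of 0.0585. Each of the 38 was well above background on all 6 arrays. The remaining pair, PSMA8 and PSMB11, are the α subunit of testis and the β subunit of thymus epithelium, and their probes were not well above background on any array.

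The median size of a change, whichever its direction, was 0.09 over the members, against 0.17 over all probes. Among the 4 PSME activators it was 0.32. The 38 changes ran from -0.32 (PSMG4) to 0.48 (PSME2) with a median of -0.07, beside -0.05 over all probes. Their 95% intervals lay within a 2-fold change either way for 37 genes, the exception being PSME2, against 78.3% of all probes. With the slide as a block in the fit, the intervals of all 38 lay within 2-fold, against 93.9% of all probes, and those of 34 within 1.5-fold, against 71.3%. These intervals bound the size of a change on this scale and do not show that there was none.

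**Figure D1:**
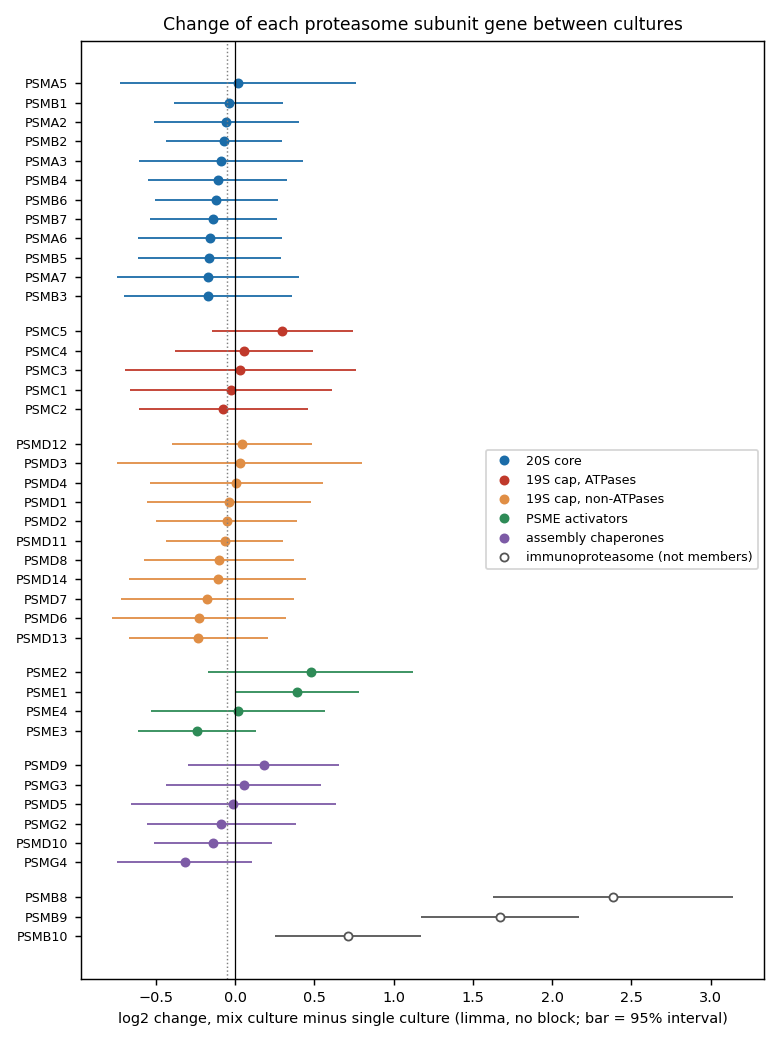
Fitted log2 change of the 38 tested subunit genes and of the 3 immunoproteasome genes, mix culture minus single culture, as points with 95% intervals from limma without a block (3 arrays against 3). The black line marks 0 and the dotted line the median of all probes at -0.05. All members except PSME2 have intervals inside 1 log2 unit either way, while PSMB8 and PSMB9 lie wholly above it.

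Probes are shown for the genes on which the comparison turned, to let the reader see what each signal stands for. Positions are on CanFam3.1 as the design gives them, and exon or UTR annotation was not used here. PSMB5 is the catalytic subunit that PSMB8 replaces, and PSMB7 the one that PSMB10 replaces. PSME1, PSME2 and PSME3 encode the subunits of the PA28 caps. PSME1 and PSME2 form the one known from antigen processing, and PSME3 forms the nuclear one. The PSMB5 probe lies at chr8:3348724-3348783 (minus strand), the PSMB7 probe within chr9:58562701-58589700 (plus), the PSME1 probe within chr8:4133586-4133819 (plus) and the PSME3 probe at chr9:20188225-20188284 (minus). The 2 PSME2 probes lie at chr8:4137275-4137334 and chr8:4137292-4137351 (minus), so they overlap by 43 bases. Capitals mark that overlap, in which 41 bases are the same and 2 differ. The other letters are in lower case.
PSMB5: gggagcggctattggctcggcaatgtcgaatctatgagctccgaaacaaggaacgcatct
PSMB7: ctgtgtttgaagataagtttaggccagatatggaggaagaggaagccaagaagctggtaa
PSME1: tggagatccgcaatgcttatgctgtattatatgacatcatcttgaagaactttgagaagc
PSME2, brightest: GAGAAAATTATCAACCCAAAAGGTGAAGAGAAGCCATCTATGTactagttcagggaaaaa
PSME2, other: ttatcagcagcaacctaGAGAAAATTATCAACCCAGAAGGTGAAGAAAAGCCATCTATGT
PSME3: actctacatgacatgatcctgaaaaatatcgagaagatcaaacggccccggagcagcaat

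These 60-base probes share little with those of related genes. The longest run of bases in common was 5 between the probes of PSMB5 and PSMB8 and 5 between PSMB7 and PSMB10. It was 7 between PSMB6 and PSMB9, 7 between PSME1 and PSME2, and 7 between PSME1 and PSME3. Over the 780 pairs of member probes the longest shared run was 12 bases, between PSMD1 and PSME2.

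The catalytic β subunits of the 20S core had changes between -0.16 and -0.12. PSMB5, the chymotrypsin-like site, read 3.81, 4.03 and 3.99 in single culture and 3.46, 3.92 and 3.98 in mix culture. Its change was -0.16 (SE 0.19, 95% interval -0.61 to 0.29, adjusted p = 0.930), and it lay mostly on slide 1, with -0.36 there and -0.06 on slide 2. Without replicate 1 of mix culture its change was 0.00. PSMB6, the caspase-like site, read 6.10, 6.14 and 6.09 in single culture and 5.78, 5.99 and 6.21 in mix culture, so its lowest and its highest array both belonged to mix culture. The change was -0.12 (interval -0.51 to 0.27). PSMB7, the trypsin-like site, read 3.92, 4.16 and 3.94 against 3.88, 3.67 and 4.06, again with overlapping groups. Its change was -0.14 (interval -0.54 to 0.27), with -0.03 on slide 1 and -0.19 on slide 2.

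The rest of the 20S core lay close to these. Over the 12 core genes tested, 1 had a change above 0 and 11 below, with a median of -0.11 and a range of -0.17 to 0.02. All 7 β genes tested were among those below 0. Of all probes, 58.0% also had a change below 0, and the direction of the core depended on the scaling, since 6 genes were above and 6 below 0 after quantile normalisation, with a median of -0.00. It also depended on single arrays, with 5 above and 7 below 0 without single culture replicate 1 (median -0.01) and 4 and 8 without mix culture replicate 2 (median -0.04). The smallest adjusted p in the core was 0.930. The median level of the 12 core probes was 5.35, 5.28 and 5.31 in single culture and 5.30, 5.14 and 5.32 in mix culture, which overlap.

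PSMB3, a β subunit without an active site, had the lowest change of the core. Its signal was 3.93, 4.58 and 4.33 in single culture and 3.89, 4.04 and 4.38 in mix culture, a change of -0.17 (SE 0.22, adjusted p = 0.941). PSMA7, of the α ring, read 7.34, 6.54 and 6.83 against 6.95, 6.49 and 6.77, also -0.17 (interval -0.74 to 0.41). Its drop lay mostly on slide 1, at -0.39 against -0.06 on slide 2, and without replicate 1 of single culture the change was 0.05. The other PSMA7 probes gave -0.35 and -0.26, and the mean of its probes gave -0.26. PSMA5, another α subunit and the only core gene with a change above 0, read 5.29, 4.41 and 4.55 against 5.30, 4.48 and 4.55. The cultures gave nearly the same values array by array, and the change was 0.01 within slide 1 and 0.03 within slide 2. Its wide interval without a block, -0.72 to 0.77, came down to -0.21 to 0.26 with the slide in the fit. The probe described as similar to PSMA1 had a change of -0.22 (adjusted p = 0.926), and that described as PSMA4, an α subunit, had -0.04 (adjusted p = 0.985).

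The 19S cap lay around the median of all probes. Of 16 cap genes tested, 6 had a change above 0 and 10 below, with a median of -0.05 and a range of -0.23 to 0.30. After quantile normalisation 9 were above and 7 below, with a median of 0.03, and without mix culture replicate 2 the same counts had a median of 0.01. None was called with or without the slide as a block. The median level of the 16 probes was 3.34, 3.06 and 3.002 in single culture and 3.28, 2.99 and 3.21 in mix culture, which overlap.

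In the ATPase ring PSMC5 stood highest. It read 2.78, 3.30 and 3.09 in single culture and 3.32, 3.24 and 3.52 in mix culture, a change of 0.30 (SE 0.19, interval -0.14 to 0.74, adjusted p = 0.781). The difference was 0.53 on slide 1 and 0.18 on slide 2, and the groups overlapped. With the slide as a block its adjusted p was 0.206. PSMC4 had 5.19, 4.81 and 4.71 against 5.07, 4.81 and 5.02, a change of 0.06 (interval -0.38 to 0.49). The lower end of the ring was as close to 0. PSMC2 read 3.42, 2.82 and 2.92 against 3.27, 2.75 and 2.91 (change -0.07, interval -0.61 to 0.46), and PSMC1 read 3.42, 3.98 and 3.99 against 3.29, 3.92 and 4.10 (change -0.03, interval -0.66 to 0.61). The fifth ATPase, PSMC3, had 0.03, and the probe described as PSMC6, which completes the ring, had -0.03.

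Among the other cap subunits PSMD13 and PSMD6, both of the lid that sits over the core, had the lowest changes. PSMD13 read 1.29, 1.34 and 1.43 in single culture and 0.79, 1.28 and 1.29 in mix culture, a change of -0.23 (SE 0.19, interval -0.67 to 0.20, adjusted p = 0.850). Most of it lay on slide 1, where a single array of each culture differed by -0.50, against -0.10 on slide 2. PSMD6 read 3.26, 2.65 and 2.74 against 2.97, 2.44 and 2.55, also -0.23 (interval -0.78 to 0.32). It differed by -0.29 on slide 1 and -0.20 on slide 2, and its adjusted p with the slide as a block was 0.203. The highest were the lid subunits PSMD12 and PSMD3. PSMD12 read 1.17, 1.07 and 1.05 against 1.41, 0.83 and 1.19, a change of 0.04 (interval -0.40 to 0.49), with 0.23 on slide 1 and -0.05 on slide 2. PSMD3 read 1.79, 2.76 and 2.67 against 1.98, 2.50 and 2.84, a change of 0.03 (interval -0.74 to 0.80). Here too the slides opposed each other, at 0.19 and -0.05. The ubiquitin receptor PSMD4 had 0.01, the deubiquitinase PSMD14 -0.11, and the large scaffold subunits PSMD1 and PSMD2 -0.04 and -0.05.

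The PSME activators held the largest changes of the set. PSME1 (PA28α) read 4.09, 4.28 and 4.25 in single culture and 4.37, 4.72 and 4.70 in mix culture, so every mix array lay above every single array. The change was 0.39 (SE 0.17, interval from just below 0 to 0.78, adjusted p = 0.575), with 0.28 on slide 1 and 0.44 on slide 2. With the slide as a block the adjusted p was 0.0585 and the interval 0.16 to 0.62. A further PSME1 probe had a change of 0.45 (adjusted p = 0.778), which was called with the slide as a block (adjusted p = 0.0365).

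PSME2 (PA28β), the partner of PSME1 in the same ring, read 5.58, 4.87 and 4.92 in single culture and 6.03, 5.46 and 5.31 in mix culture. The groups overlapped, since slide 1 read higher in both cultures, but each mix array was above the single arrays of its own slide. The change was 0.48 (SE 0.27, interval -0.17 to 1.12, adjusted p = 0.755), with 0.45 on slide 1 and 0.49 on slide 2. With the slide as a block PSME2 was called (adjusted p = 0.0314, interval 0.24 to 0.71), the only member gene that was, against 7.20% of all probes called in that fit, 3.98% as higher. With the replicate number as a block the adjusted p was 0.0625, and 0 members were called against 5.26% of all probes. The overlapping PSME2 probe gave a change of 0.46 (adjusted p = 0.819, and 0.0360 with the slide as a block). As the 2 probes share most of the same bases, they are not separate evidence.

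PSME3 (PA28γ) stood on the other side. It read 1.63, 1.65 and 1.73 in single culture and 1.50, 1.22 and 1.56 in mix culture, with every mix array below every single array. Its change was -0.24 (SE 0.16, interval -0.61 to 0.13, adjusted p = 0.795), and the slide block left it without a call (adjusted p = 0.256). PSME4 (PA200), the large cap of nuclear proteasomes, read 1.34, 0.99 and 1.18 against 1.65, 1.02 and 0.90, with no separation. The change was 0.02 (interval -0.53 to 0.57), and over its 5 probes the changes ran from -0.06 to 0.27. PSMF1, which binds the end of the core, had 4.61, 3.84 and 3.79 against 4.37, 3.82 and 3.88 (change -0.05, interval -0.70 to 0.59).

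**Figure D2:**
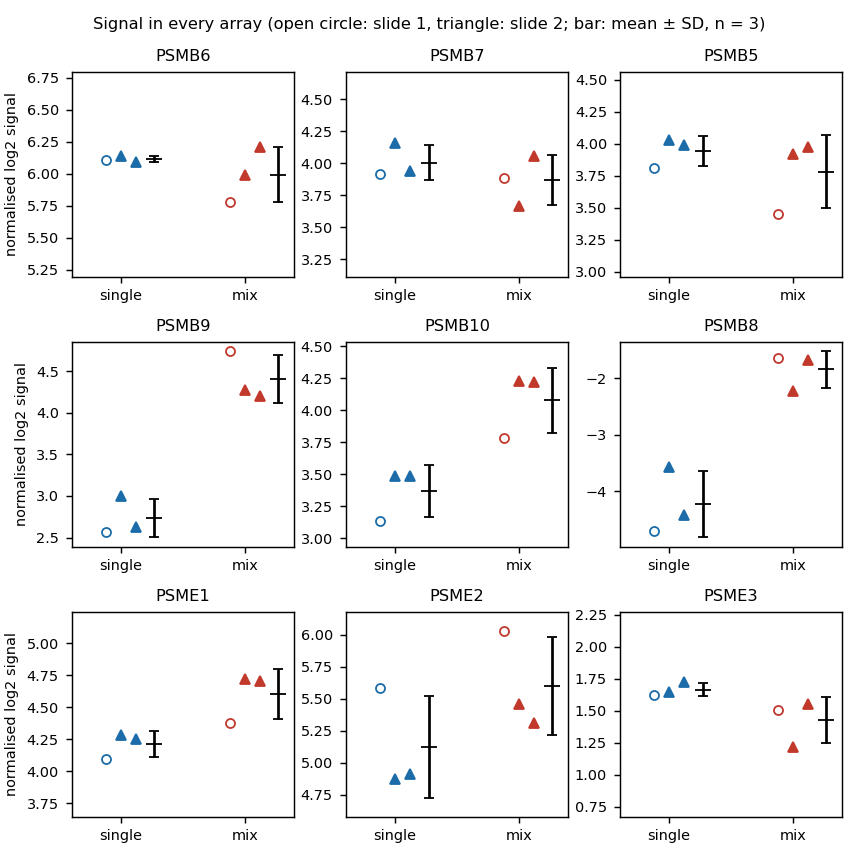
Normalised log2 signal (y axis) of each array in single culture (blue) and mix culture (red), with open circles for slide 1, triangles for slide 2 and black bars for the mean ± SD of 3 arrays. The top row holds the catalytic subunits PSMB6, PSMB7 and PSMB5, whose groups overlap, the middle row the subunits that replace each of them, whose groups do not, and the bottom row PSME1, PSME2 and PSME3; axis ranges differ between panels.

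The assembly chaperones had 2 changes above 0 and 4 below, with a median of -0.05. PSMG4 (PAC4), which helps to form the α ring, read 4.68, 4.24 and 4.28 in single culture and 3.93, 4.15 and 4.17 in mix culture, and the groups did not overlap. Its change of -0.32 (SE 0.18, interval -0.74 to 0.11, adjusted p = 0.749) was the lowest of all members, but it was -0.75 on slide 1 and -0.10 on slide 2. PSMD10 (gankyrin) read 0.91, 0.70 and 0.82 against 0.81, 0.52 and 0.68, a change of -0.14 (interval -0.51 to 0.23). Above 0 were PSMD9 and PSMG3. PSMD9 (p27) read 1.87, 2.25 and 2.28 against 2.02, 2.51 and 2.42, a change of 0.18 (interval -0.30 to 0.66, adjusted p = 0.920). It was above 0 on both slides, at 0.15 and 0.19. PSMG3 (PAC3) read 1.24, 1.54 and 1.61 against 1.20, 1.55 and 1.81, a change of 0.05 (interval -0.43 to 0.54).

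Together 3 members had groups that did not overlap, PSME1 above and PSME3 and PSMG4 below, of 38 tested. Among all probes 16.5% had groups that did not overlap. Within the slides 27 of 38 members had a change of the same sign on both, against 70.7% of all probes, and the medians were -0.09 on slide 1 and -0.05 on slide 2. PSME1 and PSME2 were the 2 members with the largest change on slide 2, where each value rests on 2 arrays against 2.

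**Figure D3:**
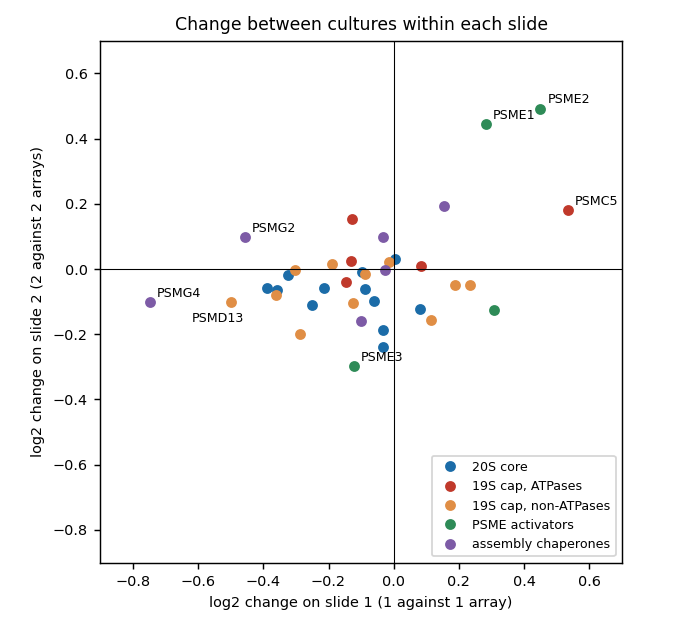
Log2 change of each tested member between cultures within slide 1 (x axis, 1 array against 1) and within slide 2 (y axis, 2 arrays against 2). Most members cluster near 0 on slide 2, PSME1 and PSME2 lie at 0.44 and 0.49 there and above 0 on both slides, and the low values of PSMG4 and PSMD13 lie on slide 1.

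Of the exchange subunits that define the immunoproteasome, which are not members, 2 of 3 were called in these same arrays, against 0.883% of all probes. PSMB8 changed by 2.39 (adjusted p = 0.0214) and PSMB9 by 1.67 (adjusted p = 0.0164), while PSMB10 changed by 0.71 (adjusted p = 0.265, and 0.00527 with the slide as a block). The PSMB8 probe was dim in single culture, at intensities of 7.9, 14.0 and 8.1. The lowest signals marked well above background on those arrays were 4.19, 4.19 and 4.33, so the size of its change is uncertain. Each exchange subunit was set beside the subunit it replaces, array by array, in pairs chosen with earlier results of these arrays known. The change of PSMB8 exceeded that of PSMB5 by 2.55 on the log2 scale (3.41 on slide 1 and 2.12 on slide 2). The change of PSMB9 exceeded that of PSMB6 by 1.79 (2.49 and 1.44), and the change of PSMB10 exceeded that of PSMB7 by 0.85 (0.68 and 0.93). In the PA28 family the change of PSME1 exceeded that of PSME3 by 0.63 (0.40 and 0.74), and the change of PSME2 exceeded it by 0.72 (0.57 and 0.79). These values are descriptions, since an exact test of 3 arrays against 3 cannot give a p below 0.1.

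The lists of genes that act around the proteasome had small median changes, beside -0.05 over all probes. Of 14 proteasome partners tested, among them genes that receive, deliver or trim substrates, 6 had a change above 0 and 8 below (median -0.04). The highest was 0.22 for SHFM1, a small cap subunit. Of 14 genes of ubiquitin activation, conjugation and the unfoldase p97, 5 were above and 9 below 0 (median -0.06), from 0.18 for FAF2 to -0.26 for the conjugating enzyme UBE2D1. Of 7 genes on the route of NFE2L1, the transcription factor known for raising proteasome genes when degradation is impaired, 5 were above and 2 below (median 0.07), from 0.27 for the ubiquitin ligase SYVN1 to -0.24 for its partner factor MAFK. NFE2L1 itself read -0.87, 0.20 and -0.38 in single culture and -0.81, -0.26 and 0.11 in mix culture, a change of 0.03 (interval -0.76 to 0.82). None of the genes on these lists was called by limma, none passed an unadjusted p under 0.05, and none was called with the slide as a block.

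The members differed more between slides than between cultures. With culture in the fit, 23 of 38 were called as differing between slides, against 47.2% of all probes. Of these, 8 were higher and 15 lower on slide 2. PSMA5 differed most downwards, by -0.80, and PSMD3 most upwards, by 0.81. The median size of the slide difference was 0.38, against 0.09 for the culture difference, while over all probes these were 0.35 and 0.17. Each slide held both cultures in equal number.

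The slide difference of a member went with the base composition of its probe. Across the 38 brightest probes, whose G and C content ran from 35.0% to 53.3%, Pearson's r between that content and the slide difference was 0.54. It was 0.55 across the 60 tested probes of members and 0.40 across all probes. The points share the same 6 arrays, so these values are descriptions. Base content and the change between cultures had an r of -0.28 across the 38 probes, -0.16 across the 60 and -0.10 across all probes. PSMD3, at 53.3%, was the most raised on slide 2, and PSMA5, at 36.7%, the most lowered. The part of base composition in the values between cultures was not tested.

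**Figure D4:**
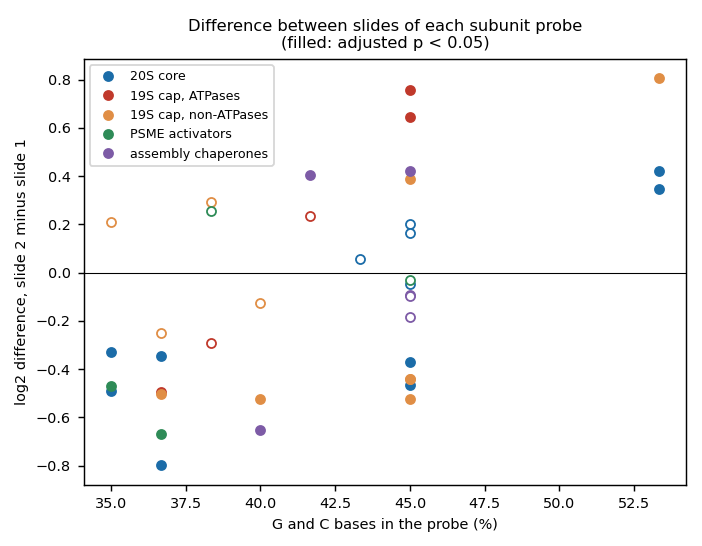
Share of G and C bases in each member's probe (x axis, percent) against its log2 difference between slides (y axis, slide 2 minus slide 1, culture in the fit), coloured by class. Filled points were called as differing between slides by limma, and PSMD3 at 53.3% and PSMA5 at 36.7% mark the highest and lowest values.

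For 14 members more than 1 probe was tested, and the largest gap between the changes of a gene's probes was 0.33 (PSME4). In 4 genes, PSMC1, PSMD1, PSMD3 and PSME4, the probes fell on both sides of 0. Of the 60 member probes tested 0 were called, against 0.883% of all probes. With the slide as a block 3 were called, both probes of PSME2 and 1 of PSME1, against 7.20% of all probes.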

How the data were processed

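The authors deposited 1 scanner file per array with spot intensity on a linear scale, which per the file headers was background-subtracted by Agilent Feature Extraction (11.5.1.1, 3 µm for slide 1; 12.1.1.1, 5 µm for slide 2) and not scaled between arrays. They also deposited a table of log2 values, of unstated steps, found to be centred per probe within each slide (the sum on slide 1 and the median on slide 2 were 0 within 0.011 for 100% of probes) and used as an alternative. Control and flagged spots (5 to 9 per array) were left out, spots of a probe averaged, and each array's 75th percentile of log2 signal subtracted. Tested were the probes that Feature Extraction marked as well above background on all 3 arrays of either culture or both, and the test was limma 3.58.1 in R 4.3.3 (two-sided, no block, as the study's unpaired design). Alternatives were the slide or replicate as a block, slide 2 alone, other scaling, background correction, filters, probe choice, the authors' table, the methods' test and each array left out. Members and lists were chosen with earlier results of these data known. Genes named were the catalytic subunits, PSME1 to PSME4, PSMF1 and, in each class, the 2 with the largest change either way. A gene of the surrounding lists is left unnamed and not reported here. Same-numbered arrays deviated together (r = 0.801, 0.53 and 0.572), but so did the crossed pairs of slide 2 (0.61 and 0.632), so both the replicate block and its crossed form were run and neither is told from a shared slide. Symbols were matched to RefSeq's table of UU_Cfam_GSD_1.0 for names alone. Probe similarity was the longest run of bases 2 probes share. With 6 arrays, their number limits the precision.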

Additional observations from a re-analysis of the deposited data

How the results depend on the processing

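The count of member genes called was 0 in limma without a block and stayed 0 under 10 other alternatives, the replicate block and its crossed pairing among them, and with each array left out (0 to 0). Several of these fits called few probes of any kind, such as 8 of 26621 with the methods' test and 101 after normexp. In those fits a count of 0 says little about the members. It was 1 with the slide as a block (PSME2) and 2 in the authors' table (PSME1, adjusted p = 0.00636, and PSME2, 0.00901). In that table each probe had been centred within its slide before deposit. The limma fit did not count this centring, so its adjusted p-values are too small, and it called 4077 of 26621 probes. Over all probes, 235 calls became 1917 with the slide as a block, 1399 with the replicate block, 1447 with replicates 2 and 3 crossed in that block (chosen after seeing the data), 998 on slide 2 alone, 101 after normexp, 8 with the methods' test, 143 once probes dim on any array were dropped, and 4077 in the authors' table (1948 higher and 2129 lower, against 217 and 18). Leaving out 1 array gave 92 to 247 calls, with 92 without single culture replicate 3, 92 without mix culture replicate 2 and 99 without mix culture replicate 3. The cause was not tested.

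The median change of the PSME activators was 0.025 without mix culture replicate 1 and 0.025 to 0.25 over all single arrays left out; over the same fits the median ran from -0.11 to 0.01 for all members, -0.17 to -0.01 for the 20S core, -0.11 to 0.01 for the 19S cap and -0.19 to -0.01 for the assembly chaperones. Among named genes 377 of the values under alternatives kept their direction and side of the threshold, 3 passed it (the calls of PSME1 and PSME2 above) and 33 changed sign. The replicate block changed no call among the members. PSME1 stayed between 0.33 and 0.50 and PSME2 between 0.26 and 0.71 with an array left out. On slide 2 alone the sign turned for PSME4 (-0.13), PSMC1 (0.024), PSMD3 (-0.048), PSMD12 (-0.050) and PSMF1 (0.038). Quantile normalisation turned PSMC1 (0.036) and PSMF1 (0.017), the authors' table PSMC1 (0.037) and PSMF1 (0.023), and the mean of a gene's probes PSMC1 (0.046) and PSMD3 (-0.071). With an array left out the range spanned 0 for PSMB5 (-0.26 to 0.0025), PSME4 (-0.21 to 0.16), PSMA7 (-0.35 to 0.050), PSMA5 (-0.24 to 0.29), PSMC2 (-0.22 to 0.11), PSMC1 (-0.22 to 0.21), PSMC4 (-0.039 to 0.20), PSMD3 (-0.28 to 0.26), PSMD12 (-0.086 to 0.20), PSMG3 (-0.089 to 0.21) and PSMF1 (-0.23 to 0.21). Normexp used the median spot signal, which all 6 files hold.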

Other observations

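Replicates 2 and 3 of mix culture appeared exchanged between the authors' value table and the scanner files. Which of these carries the wrong labels cannot be told from the values, and the scanner files were taken as labelled. Each of these columns followed the scanner file of the other array, with correlations over probes of 0.998 and 0.992, against 0.352 with their own. Both columns belong to mix culture, so the exchange leaves the comparison of cultures without a block as it was. The median of each of the 4 slide 2 columns was 0.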
